A study of Mus musculus with 48 samples.

Results

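Hdc encodes histidine decarboxylase, the enzyme that makes histamine from the amino acid histidine. The transcript was followed across all 16 groups of strain and condition in a study of cultured kidney slices, as 1 gene of the 55487 in the count table. Its row was found by the Ensembl ID ENSMUSG00000027360, which maps to the mouse symbol Hdc. The gene was selected on measured values of these same libraries, so its strain, time and oxygen differences are given as a description, with no test.

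Kidney slices were cultured from males of C57BL/6J and of DBA/2J, which together founded the BXD recombinant inbred panel, with 3 libraries in each group. Slices of each strain were kept as untreated controls, with tunicamycin (a blocker of N-linked glycosylation in the endoplasmic reticulum) or with cyclosporin A (a calcineurin inhibitor), each for 6 h and for 24 h. Further slices were kept under normoxia, which the labels call an ischemia model, or went from normoxia to hyperoxia, called a reperfusion model, and the titles give 24 h for both. Drug doses, the ages of the mice and the oxygen levels are not given in the sources used here. By their titles, the oxygen slices and the control and drug slices belong to different experiments, so that the experiment and the oxygen condition cannot be told apart. Replicates are labelled as biological, but no label says which slices came from the same mouse.

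The libraries held 5619309 to 25137581 counts, with the lowest in DBA/2J normoxia-hyperoxia replicate 2 and 12384733 as the next lowest. Hdc had 7 to 111 counts in the C57BL/6J libraries and 213 to 10027 in the DBA/2J libraries. One library stood apart. In C57BL/6J tunicamycin 24 h replicate 2, Hdc had 111 counts, against at most 52 in any other C57BL/6J library. A set of 38 other genes, chosen from these data as nearly restricted to DBA/2J, summed to 2.26% of their DBA/2J level in that library and to between 1.06% and 1.54% in the other 23 C57BL/6J libraries. In that library H2-Ea-ps, the class II E alpha gene that C57BL/6 mice do not express, had 18 counts (0.772 CPM, the count scaled by the library total). It had at most 1 count in the other 23, 21 of which were at 0, and a median of 101 CPM in DBA/2J. This gene was chosen after its values were seen. The part of these reads in the Hdc value of that library was not tested, and the tunicamycin values at 24 h, the order of the groups and the correlations over C57BL/6J means are given with and without it.

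Histidine decarboxylase uses pyridoxal phosphate as its cofactor. It is best known from mast cells, basophils, enterochromaffin-like cells of the stomach and certain neurons. Mouse kidney also makes the enzyme, and there its activity is known to depend on sex steroids, thyroid hormone and strain. Histamine is broken down by a methyltransferase (Hnmt) and a diamine oxidase (Aoc1), and it is carried across membranes by organic cation transporters.

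The gene lies on the minus strand of chromosome 2, at chr2:126593667-126619299 (GENCODE M21, GRCm38), and has 5 annotated transcripts. Transcript Hdc-201 has 12 exons and 2392 bases. No other annotated gene overlaps the gene. The nearest, Slc27a2, ends 5.42 kb away, so that reads of an overlapping or antisense partner do not enter its count by this annotation. The 250 bases before the start site of the RefSeq gene are shown because Hdc was the gene of its region with the largest strain difference (GRCm38.p6, chr2:126618679-126618928, minus strand, written 5′ to 3′). Capitals mark the matches to CAAAGTTCA, a core of the hepatocyte nuclear factor HNF4, and to GGGCGG, a GC box.

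Hdc, bases before the start site: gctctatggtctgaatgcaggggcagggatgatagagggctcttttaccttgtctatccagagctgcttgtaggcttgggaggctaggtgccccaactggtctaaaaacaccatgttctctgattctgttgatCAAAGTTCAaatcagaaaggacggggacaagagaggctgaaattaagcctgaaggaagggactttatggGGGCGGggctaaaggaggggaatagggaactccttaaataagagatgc

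The match to CAAAGTTCA began 117 bases before the start, and 0.335% of 32851 RefSeq promoters held these letters on either strand in the same window. The GC box began 48 bases before the start and was found in 32.7% of promoters. AGAACA, a core bound by the glucocorticoid receptor, matched once on the other strand, 137 to 132 bases before the start (16.1% of promoters). No match was found on either strand for CAAAGTCCA (0.384% of promoters), TATAAA (12.4%), CCAAT (33.8%), AGGTCA (14%), AGATAA (9.99%), ACGTG (16.6%) or GTTAAT (6.43%). None of the matches found overlapped another. The window holds no exon of the 5 GENCODE transcripts, but it lies within the span of Hdc-205, which starts farther upstream. A match describes letters of the reference, which is a C57BL/6J genome, and the DBA/2J bases were not analysed here.

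Hdc was far higher in DBA/2J than in C57BL/6J in every condition. In 6 h controls it stood at 207, 215 and 244 CPM in DBA/2J and at 1.45, 2.42 and 2.43 CPM in C57BL/6J. All DBA/2J libraries lay above all C57BL/6J libraries, and the ratio of the means was 106. On the log2 scale of the edgeR fit the difference was 6.57 ± 0.23 (SE, 3 libraries against 3), the 60th highest of 16962 genes. Of these genes, 13.6% were higher in DBA/2J and 12.7% lower at an adjusted p under 0.05 by edgeR's quasi-likelihood test.

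The strain difference was of similar size with either drug at 6 h. With tunicamycin the DBA/2J slices held 262, 150 and 223 CPM and the C57BL/6J slices 1.76, 1.89 and 2.05 CPM, a log2 difference of 6.69 ± 0.25 (SE). With cyclosporin A the values were 251, 188 and 256 CPM against 1.90, 2.04 and 1.75 CPM, a difference of 6.78 ± 0.20 (SE). No DBA/2J library overlapped a C57BL/6J library here either.

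**Figure D1:**
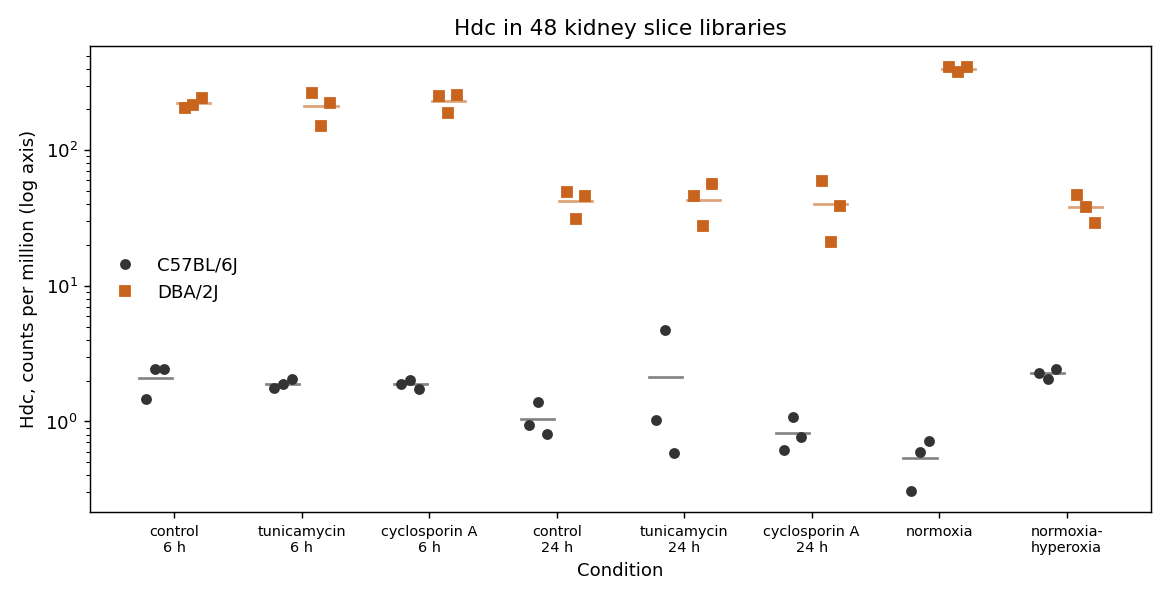
Hdc in each of the 48 libraries, in CPM on a log axis, by condition; points are libraries (C57BL/6J circles, DBA/2J squares) and bars are group means. The DBA/2J libraries lie between 21.2 and 410 CPM and the C57BL/6J libraries between 0.306 and 4.76 CPM. Under normoxia the group means of the strains move in opposite directions, with only 7 to 14 counts in the C57BL/6J libraries.

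At 24 h both strains held less. The DBA/2J controls had 49.2, 30.9 and 45.7 CPM, 5.29 times below their 6 h mean, and no 24 h library reached a 6 h library. The C57BL/6J controls had 0.946, 1.39 and 0.807 CPM, 2.01 times below their 6 h mean, also without overlap. The log2 difference between the times was −2.56 ± 0.18 (SE) in DBA/2J and −1.22 ± 0.33 (SE) in C57BL/6J, and the strain difference in 24 h controls was 5.23 ± 0.25 (SE).

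Under tunicamycin for 24 h the DBA/2J libraries had 45.998, 27.8 and 56.0 CPM, which spans their controls. The C57BL/6J libraries had 1.03, 4.76 and 0.586 CPM, of which the second is the library that stood apart. Their log2 difference from control was 1.06 ± 0.75 (SE) with that library and −0.35 ± 0.59 (SE) without it. The strain difference was 4.19 ± 0.57 (SE) with it and 5.60 ± 0.45 (SE) without it. Cyclosporin A for 24 h gave 59.8, 21.2 and 39.1 CPM in DBA/2J and 0.618, 1.08 and 0.763 CPM in C57BL/6J, a strain difference of 5.55 ± 0.45 (SE). In both strains these values overlapped those of the 24 h controls.

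No drug difference in Hdc passed the test. Over both strains the log2 difference from control was −0.11 ± 0.17 (SE) for tunicamycin at 6 h and −0.02 ± 0.13 (SE) for cyclosporin A at 6 h, each with an edgeR adjusted p of 1. At 24 h it was 0.56 ± 0.44 (SE, edgeR adjusted p = 0.67) for tunicamycin and −0.27 ± 0.34 (SE, edgeR adjusted p = 0.942) for cyclosporin A. Without C57BL/6J tunicamycin replicate 2 the 24 h tunicamycin value turned to −0.14 ± 0.32 (SE, edgeR adjusted p = 0.902). Across all genes tested, tunicamycin at 6 h, cyclosporin A at 6 h and cyclosporin A at 24 h each called 0%, and tunicamycin at 24 h called 1.38%. At 24 h, changes in Hdc of the size of these SEs were not detectable with 3 libraries a group.

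Under normoxia the group means of the strains went in opposite directions. There DBA/2J slices held 410, 379 and 410 CPM, the highest of any group, 9.53 times their 24 h controls and 1.80 times their 6 h controls. C57BL/6J slices held 0.306, 0.594 and 0.714 CPM (7 to 14 counts), the lowest of any group, 1.95 times below their 24 h controls and 3.91 times below their 6 h controls. In CPM the normoxia libraries of each strain overlapped neither set of controls. Under TMM scaling those of C57BL/6J overlapped their 24 h controls, with replicate 3 of normoxia (14 counts) at 0.778 and replicate 3 of the controls (10 counts) at 0.730. The ratio of the strain means was 743, and the log2 difference of 9.62 ± 0.23 (SE) was the 11th highest of 17228 genes.

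Against 24 h controls, normoxia differed by 3.58 ± 0.16 (SE) on the log2 scale in DBA/2J and by −0.82 ± 0.42 (SE) in C57BL/6J. Both oxygen conditions are set against the same control libraries. Against 6 h controls the values were 0.96 ± 0.13 (SE) and −2.06 ± 0.29 (SE). The lower C57BL/6J level against 24 h controls thus rests on few counts and on the scaling, while that against 6 h controls was without overlap on both scales.

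Normoxia-hyperoxia reversed this order within each strain. DBA/2J slices held 47.2, 37.9 and 29.2 CPM, overlapping their 24 h controls, with a log2 difference of 0.01 ± 0.19 (SE). C57BL/6J slices held 2.29, 2.07 and 2.42 CPM, all above their 24 h controls (1.24 ± 0.32, SE) and overlapping their 6 h controls (0.05 ± 0.26, SE). Set against normoxia, Hdc was 10.5 times lower in DBA/2J and 4.20 times higher in C57BL/6J, with no overlap in either strain. The strain difference of 3.98 ± 0.19 (SE) was the smallest of the 8 conditions, and the ratio of the means was 16.9. DBA/2J normoxia-hyperoxia replicate 2, the library with the lowest total, held 213 counts of Hdc and lay between its other replicates.

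**Figure D2:**
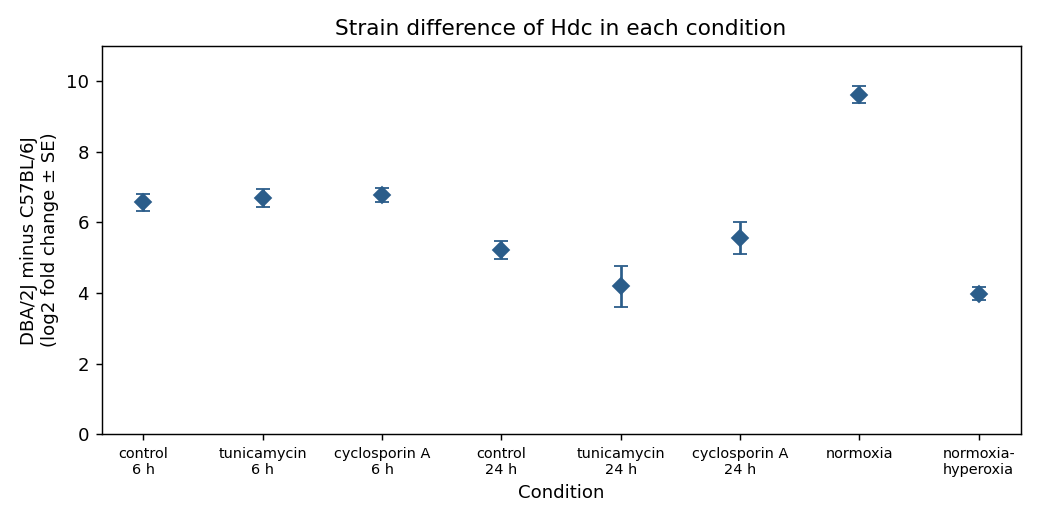
Strain difference of Hdc (DBA/2J minus C57BL/6J, log2 fold change of the edgeR fit) in each condition, with bars of 1 SE and 3 libraries a strain. It runs from 3.98 under normoxia-hyperoxia to 9.62 under normoxia.

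In the order of the 16 group means, DBA/2J normoxia came first and was clear of the next group. The 3 DBA/2J groups at 6 h followed and overlapped one another. DBA/2J at 24 h with tunicamycin, without treatment and with cyclosporin A, and DBA/2J normoxia-hyperoxia, came next and also overlapped. C57BL/6J normoxia-hyperoxia, tunicamycin at 24 h and the 3 groups at 6 h formed a run of overlapping neighbours below all DBA/2J groups. The C57BL/6J tunicamycin group at 24 h was 10th of 16 with a mean of 2.12 CPM, but 15th with 0.806 CPM without replicate 2, and 13th with all 3 libraries under TMM scaling. C57BL/6J 24 h controls, cyclosporin A at 24 h and normoxia closed the order, again with each overlapping the next. On a scale of CPM per kb of exon, Hdc ranked 740th of 26355 detected genes in DBA/2J normoxia (62.6 ± 2.8, SD, n = 3) and 19880th of 26420 in C57BL/6J normoxia (0.0842 ± 0.0328, SD, n = 3). This scale takes 6389 merged exon bases, while Hdc-201 alone has 2392, so the ranks depend on which transcripts gave the reads.

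Across the 8 conditions, the group means of Hdc in one strain correlated with those in the other at r = 0.0758 on the log2 scale (8 points, a description), and at 0.196 without C57BL/6J tunicamycin 24 h replicate 2. In DBA/2J, Hdc went with markers of the epithelium of the proximal tubule, the segment that reabsorbs most of the filtrate. Over the 8 DBA/2J group means, Hdc correlated with Cubn (the endocytic receptor cubilin) at r = 0.995, with Lrp2 (megalin) at 0.992 and with Slc34a1 (the phosphate cotransporter) at 0.981. The 6 markers of all proximal segments had a median r of 0.982, those of S1 and S2 0.984 and those of S3 0.970, against −0.106 over 12349 genes compared. In C57BL/6J the same medians were −0.0310, 0.0653 and −0.0794, against 0.0444 over all genes. Without C57BL/6J tunicamycin 24 h replicate 2 they were 0.1097, 0.208 and 0.0609, against 0.0745 over all genes. The group means share libraries, depth and tissue makeup, so no p is attached to these values.

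The summed level of the 6 proximal markers moved in the same directions in both strains. In DBA/2J it was 6720 ± 638 CPM in 6 h controls, 1612 ± 569 in 24 h controls, 13538 ± 943 under normoxia and 786 ± 174 under normoxia-hyperoxia (SD, n = 3). In C57BL/6J it was 3894 ± 1301, 526 ± 100.5, 7864 ± 1202 and 241 ± 66.6 CPM (SD, n = 3). All 6 passed the test as lower at 24 h than at 6 h, as did 37.4% of all genes, and all 6 as higher under normoxia than in 24 h controls, as did 42.4% of all genes. In bulk tissue, fewer cells of a type and less RNA per cell cannot be told apart.

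Set against that sum, Hdc in DBA/2J lay between 26.9 and 35.1 CPM per 1000 CPM of the markers as a group mean in 7 conditions. It took 33.1 ± 0.28 in 6 h controls, 26.9 ± 3.9 in 24 h controls and 29.6 ± 2.0 under normoxia (SD, n = 3). Under normoxia-hyperoxia it took 48.5 ± 5.3 (SD, n = 3). In C57BL/6J the same quantity was 0.617 ± 0.347 in 6 h controls, 2.02 ± 0.54 in 24 h controls, 0.0706 ± 0.0308 under normoxia and 9.91 ± 2.95 under normoxia-hyperoxia (SD, n = 3). The lowest C57BL/6J values came from the slices with the most marker RNA, and the highest from those with the least. Dividing by a sum that varies far more than C57BL/6J Hdc largely fixes this order. In the C57BL/6J library that stood apart, the markers summed to 1299 CPM, against 253 to 760 CPM in the other 8 C57BL/6J libraries of 24 h controls and drugs.

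**Figure D3:**
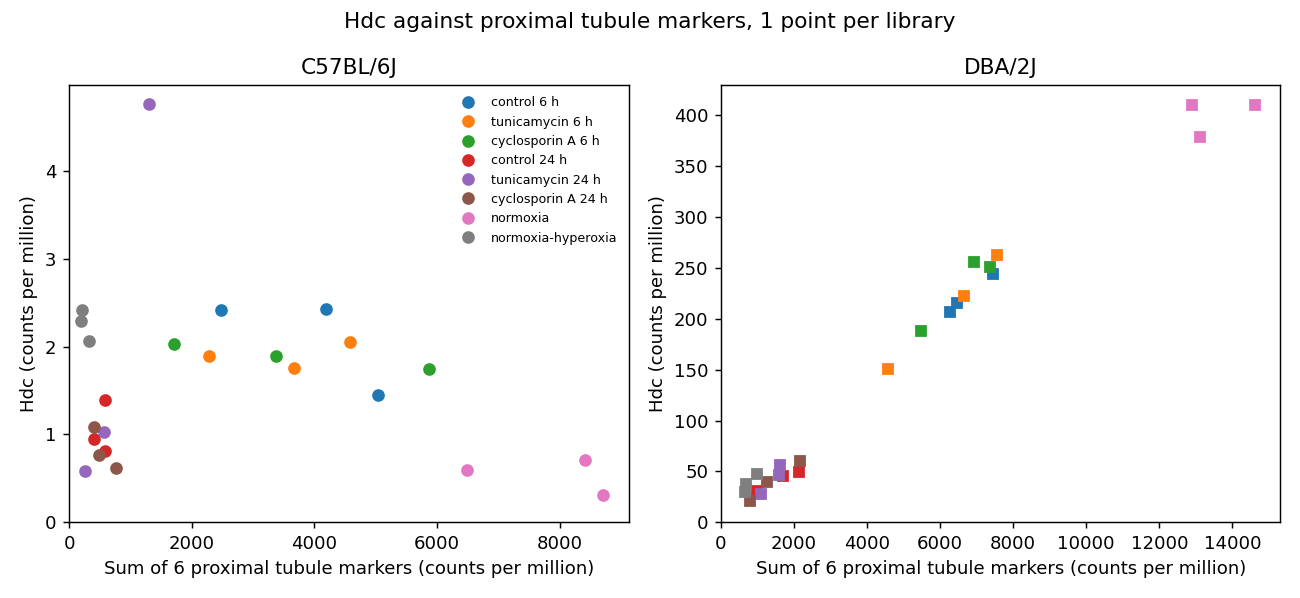
Hdc against the summed level of 6 proximal tubule markers (Lrp2, Cubn, Slc34a1, Hnf4a, Aqp1 and Slc27a2), both in CPM, with 1 point per library, colours for conditions and separate axes for the strains. The DBA/2J points climb together from normoxia-hyperoxia to normoxia, while the C57BL/6J normoxia libraries combine the most marker RNA with 0.306 to 0.714 CPM of Hdc.

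Among other markers, the 3 podocyte genes had a median r with Hdc of 0.941 over the 8 C57BL/6J means and 0.316 over the DBA/2J means. The medians were 0.541 and 0.521 for 4 collecting duct genes, 0.481 and 0.389 for 4 genes of the thick ascending limb and distal tubule, and 0.699 and −0.121 for 3 endothelial genes. Without the library that stood apart, the C57BL/6J medians of these 4 lists were 0.964, 0.664, 0.615 and 0.828. The C57BL/6J level of Hdc rests on few reads, and the difference between the strains in r was not tested.

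Most defining markers of mast cells and basophils were at or near 0. Of the mast cell genes, Fcer1a (the IgE receptor alpha chain) and Mrgprb2 had no count in any library. Cpa3, the mast cell carboxypeptidase, reached at most 0.0875 CPM in C57BL/6J libraries and 0.356 in DBA/2J, with 19 and 18 of 24 libraries at 0. Ms4a2 had counts in every library, with a median of 0.369 CPM in C57BL/6J and 0.336 in DBA/2J. The 10 mast cell genes summed to 21.9 to 140 CPM in C57BL/6J libraries and 18.9 to 85.1 in DBA/2J, but Kit and Hpgds, which are made by other cells too, held nearly all of it. The other 8 summed to 0.127 to 1.14 CPM and 0.0476 to 1.78 CPM. Hdc in C57BL/6J was itself at only 0.306 to 4.76 CPM, and the part of mast cells in it was not tested. Of the basophil genes, Mcpt8 reached at most 0.149 and 0.285 CPM, and the sum of the 4 (2.66 to 4.78 and 4.56 to 9.71 CPM) was mostly Il3ra. The 6 neutrophil genes summed to at most 3.73 and 6.55 CPM. The 8 macrophage genes summed to 138 to 265 CPM in C57BL/6J libraries and 156 to 480 in DBA/2J, with the highest group mean of either strain under normoxia-hyperoxia. There Hdc in CPM had its lowest DBA/2J mean, though not under TMM scaling, and its highest C57BL/6J mean, and the part of macrophages in these levels was not tested.

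The other genes of histidine and histamine handling came from a list of 43, of which 35 or 36 had enough counts to be tested. By 24 h, 22 of 35 were lower and 8 higher in controls than at 6 h over both strains, with a median log2 difference of −1.03 against −0.02 over all genes. Of all genes tested, 37.4% were lower and 34.7% higher. Under normoxia 23 of 35 were higher and 10 lower than in 24 h controls, with a median of 1.46 against 0.05 over all genes, of which 42.4% were higher and 39.7% lower. Under normoxia-hyperoxia 17 of 36 were higher and 13 lower (median 0.23 against 0.00), and over all genes 34.1% were higher and 34.1% lower. Many of these genes are made in the proximal tubule, and their part in that marker change was not tested.

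In histidine supply, Slc7a5 and Slc3a2, the subunits of the LAT1 exchanger of large neutral amino acids, fell under normoxia by 5.04 ± 0.08 and 2.10 ± 0.09 on the log2 scale against 24 h controls (SE, edgeR adjusted p = 1.07e-16 and 2.23e-12). Cndp2, a dipeptidase that can free histidine from carnosine, rose there by 2.10 ± 0.15 (SE, edgeR adjusted p = 3.4e-08). Slc38a3, a transporter of glutamine and histidine, rose by 3.71 ± 0.15 (SE, edgeR adjusted p = 3.22e-12).

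Among genes that use histidine in other ways, Uroc1 (urocanase, of histidine degradation) fell by 2.15 ± 0.09 on the log2 scale from 6 h to 24 h in controls (SE, edgeR adjusted p = 7.5e-11). It was lower in DBA/2J than in C57BL/6J by −0.83 ± 0.11 in 6 h controls (SE, edgeR adjusted p = 0.000121), the direction opposite to Hdc. This holds for 6 h only, since the change of Uroc1 with time differed between the strains (log2 interaction 1.23). Amdhd1 (imidazolonepropionase, the next step) was at 15, 14 and 18 counts in C57BL/6J 6 h controls and at 2, 1 and 0 counts in DBA/2J. Under normoxia it had 52, 65 and 37 counts in C57BL/6J (2.46 ± 0.68 CPM, SD, n = 3) and 0 in every DBA/2J library, at least 18.2-fold higher when 3 counts per library are taken as the floor. Hal, the ammonia lyase that starts this route, stayed at or below 1.16 CPM as a group mean.

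For the cofactor, Alpl (alkaline phosphatase, which releases pyridoxal from its phosphate outside cells) fell by 2.40 ± 0.17 at 24 h and rose by 3.14 ± 0.18 under normoxia on the log2 scale (SE, edgeR adjusted p = 1.03e-07 and 1.64e-08). Pdxp, the phosphatase that removes the cofactor, went the other way, up by 2.04 ± 0.17 at 24 h and down by −3.46 ± 0.20 under normoxia (SE, edgeR adjusted p = 8.54e-08 and 1.5e-10).

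Hnmt, the methyltransferase that inactivates histamine inside cells, moved in the same directions in both strains. It stood at 9.88 ± 0.44 CPM in C57BL/6J and 8.97 ± 0.92 in DBA/2J 6 h controls, at 2.32 ± 0.69 and 2.89 ± 0.63 in 24 h controls, and at 15.3 ± 1.6 and 11.2 ± 0.6 under normoxia (SD, n = 3). The fall with time was −2.05 ± 0.15 on the log2 scale (SE, edgeR adjusted p = 1.74e-08) and the strains in 6 h controls differed by −0.29 ± 0.19 (SE, edgeR adjusted p = 0.298). Aoc1, the diamine oxidase that degrades histamine outside cells, was higher in DBA/2J. Its 6 h control libraries held 16.9, 5.23 and 6.58 CPM in DBA/2J and 2.57, 1.13 and 1.45 CPM in C57BL/6J, which do not overlap (log2 difference 2.34 ± 0.50, SE, edgeR adjusted p = 0.00471). Under normoxia the values were 12.5, 8.96 and 11.6 CPM against 3.76, 4.06 and 4.90 CPM (1.46 ± 0.23, SE, edgeR adjusted p = 0.000118).

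Slc22a2 and Slc47a1, which carry organic cations, were lower in 24 h than in 6 h controls, as were 37.4% of all genes tested. Slc22a2 (OCT2) went down by −3.00 ± 0.22 and Slc47a1 (the apical extruder MATE1) by −2.52 ± 0.18 on the log2 scale (SE, edgeR adjusted p = 1.6e-07 and 1.2e-07). Under normoxia they rose by 4.40 ± 0.17 and 4.20 ± 0.15 (SE, edgeR adjusted p = 3.39e-10 and 2.3e-11). In DBA/2J 6 h controls Slc47a1 and Slc22a2 were higher than in C57BL/6J by 1.04 ± 0.24 and 1.04 ± 0.28 (SE, edgeR adjusted p = 0.00789 and 0.0179). Slc18a2, which loads histamine into vesicles, stayed at or below 0.571 CPM in every group mean.

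Of the receptors, Hrh1 and Hrh2 lay near 1 CPM, at 0.957 and 0.918 CPM in C57BL/6J 6 h controls, and did not pass the test between 24 h and 6 h controls (edgeR adjusted p = 0.264 and 0.0924). Against 24 h controls both rose under normoxia-hyperoxia, by 0.68 ± 0.27 and 0.87 ± 0.23 on the log2 scale (SE, edgeR adjusted p = 0.0389 and 0.00393). Hrh3 and Hrh4 were too low to be tested. Among related decarboxylases, Ddc (which makes dopamine and serotonin) fell by 3.02 ± 0.17 at 24 h and rose by 3.84 ± 0.14 under normoxia (log2, SE, edgeR adjusted p = 4.16e-09 and 2.24e-11). Its strain difference in 6 h controls was 0.17 ± 0.21 (SE, edgeR adjusted p = 0.593). Csad, of taurine synthesis, was higher in DBA/2J 6 h controls by 1.18 ± 0.19 (SE, edgeR adjusted p = 0.000842).

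**Figure D4:**
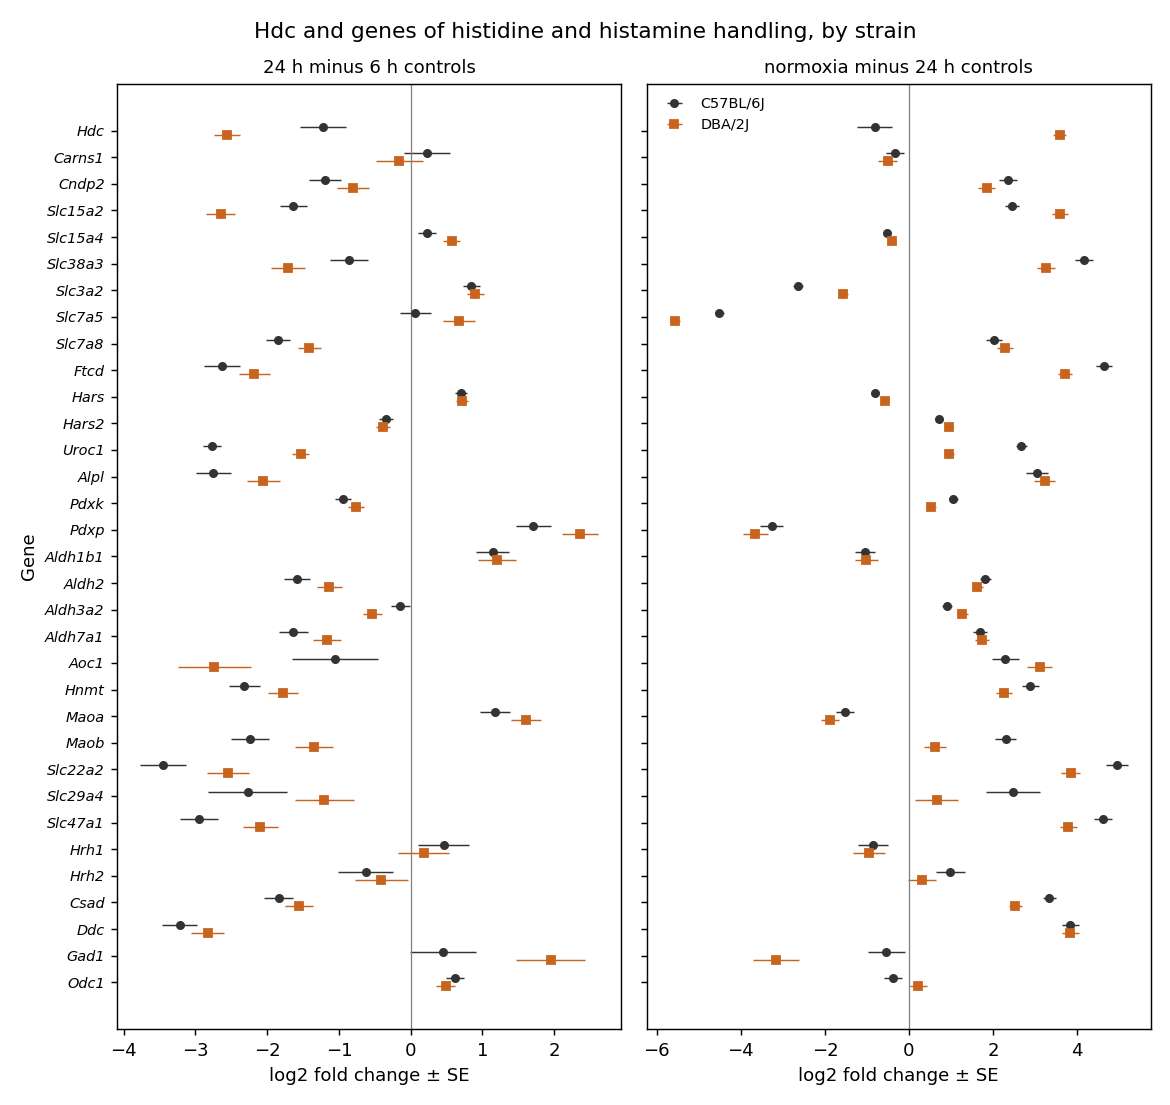
Log2 fold changes with bars of 1 SE for Hdc and 32 tested genes of histidine and histamine handling (Amdhd1 is not drawn because DBA/2J had almost no counts), within C57BL/6J (circles) and DBA/2J (squares). Left, 24 h against 6 h controls; right, normoxia against 24 h controls, where Hdc is at 3.58 in DBA/2J and −0.82 in C57BL/6J.

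Between the strains, 10 of 35 tested pathway genes were higher and 6 lower in DBA/2J 6 h controls, where 13.6% of all genes tested were higher and 12.7% lower. Under normoxia 17 of 36 were higher and 11 lower, where 28.3% of all genes tested were higher and 18.5% lower. The effect of normoxia against 24 h controls differed between the strains for 12 of 35, against 17% of all genes, and the count fell to 7 without C57BL/6J 24 h control replicate 1, C57BL/6J normoxia replicate 3 or DBA/2J normoxia replicate 1 or 2, and to 5 without DBA/2J normoxia replicate 3. For time the number was 1 (Uroc1) of 35, against 0.69% of all genes, with 8 at an unadjusted p under 0.05 and 2 by DESeq2. For normoxia-hyperoxia against 24 h controls edgeR called 0 of 36, against 1.43% of all genes, with 5 at an unadjusted p under 0.05 and 0 by DESeq2. Without the filter on low counts, the numbers for time and for normoxia-hyperoxia were higher, as given in the last section.

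The drugs touched few pathway genes. Tunicamycin at 24 h raised 3 of 35, where 1.38% of all genes changed either way, among them Slc3a2 by 0.29 ± 0.06 and Slc7a5 by 0.22 ± 0.05 on the log2 scale (SE, edgeR adjusted p = 0.0235 and 0.0469). Leaving out any library of this comparison other than replicate 3 of either tunicamycin group left 0 or 1 such genes. Of the pathway genes, edgeR called 0 of 36 for tunicamycin at 6 h (0 at an unadjusted p under 0.05), 0 of 36 for cyclosporin A at 6 h (1 unadjusted) and 0 of 35 for cyclosporin A at 24 h (3 unadjusted), and DESeq2 called 0 in each.

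A further list held genes known to be raised by androgens in mouse kidney. All 10 were tested, and 7 were higher and 1 lower in DBA/2J 6 h controls (all genes, 13.6% and 12.7%). Kap, the kidney androgen-regulated protein, stood at 10581 CPM in DBA/2J and 6365 CPM in C57BL/6J 6 h controls as group means. At 24 h 9 of the 10 were lower and 1 higher (Odc1) than at 6 h, and under normoxia 9 were higher than in 24 h controls. Of all genes, 37.4% were lower and 34.7% higher at 24 h, and 42.4% were higher and 39.7% lower under normoxia, which is the background for the next lists too. Esr1, the oestrogen receptor alpha, was at 9.03 CPM in DBA/2J and 4.38 CPM in C57BL/6J 6 h controls. Of 6 hormone receptor genes, 5 fell at 24 h and 5 rose and 1 fell under normoxia against 24 h controls. Of 4 genes known to be higher in female kidney, 3 were tested and fell at 24 h, and 4 were tested and rose under normoxia. The summed proximal tubule markers given above were also higher in DBA/2J, lower at 24 h and higher under normoxia, and their part in the changes of the hormone lists was not tested. Of the androgen list, Cyp7b1, Slc7a13 and Acsm3 are also on the list of S3 markers.

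Around Hdc, 11 other genes with annotated spans within 500 kb passed the filter in the fit of the 6 h and 24 h controls. In 6 h controls 4 of the 11 were higher in DBA/2J and 0 lower, where 13.6% of all genes were higher and 12.7% lower, with a median log2 strain difference of 0.52. Under normoxia 7 were higher and 1 (Atp8b4) lower, with a median of 0.46, where 28.3% of all genes were higher and 18.5% lower. Atp8b4 stood at −0.93 ± 0.23 there (log2, SE, edgeR adjusted p = 0.0045), but at 1.90 ± 0.37 in 24 h controls and 2.31 ± 0.23 under normoxia-hyperoxia (SE, edgeR adjusted p = 0.00178 and 4.7e-06). Usp8, a ubiquitin protease whose span lies 88.0 kb from Hdc, was at 206 ± 21 CPM in DBA/2J and 115 ± 7 CPM in C57BL/6J 6 h controls (SD, n = 3), a log2 difference of 0.69 ± 0.09 (SE, edgeR adjusted p = 9.1e-05). Under normoxia the difference was 1.15 ± 0.10 (SE, edgeR adjusted p = 4.82e-07). Sppl2a, an intramembrane protease 271 kb away, was higher in DBA/2J by 0.58 ± 0.09 and 0.54 ± 0.09 in these conditions (SE, edgeR adjusted p = 0.000403 and 0.000134). Slc27a2, a fatty acid transporter of the proximal tubule and the nearest gene, differed by 0.86 ± 0.29 and 0.55 ± 0.18 (SE, edgeR adjusted p = 0.0464 and 0.019). Gabpb1, 8.14 kb from Hdc on its other side, differed by −0.12 ± 0.13 in 6 h controls, by 0.39 ± 0.10 under normoxia and by −0.29 ± 0.10 under normoxia-hyperoxia (SE, edgeR adjusted p = 0.536, 0.00501 and 0.0361). Slc27a2 differed more in 24 h controls (2.10 ± 0.30) and under normoxia-hyperoxia (1.70 ± 0.19, SE, edgeR adjusted p = 0.00046 and 1.11e-05), where Hdc stood at 5.23 and 3.98. In 24 h controls 6 of the 11 were higher and 0 lower in DBA/2J, against 13.9% and 8.27% of all genes. Under normoxia-hyperoxia 6 were higher and 2 lower, against 14.3% and 11.3%.

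**Figure D5:**
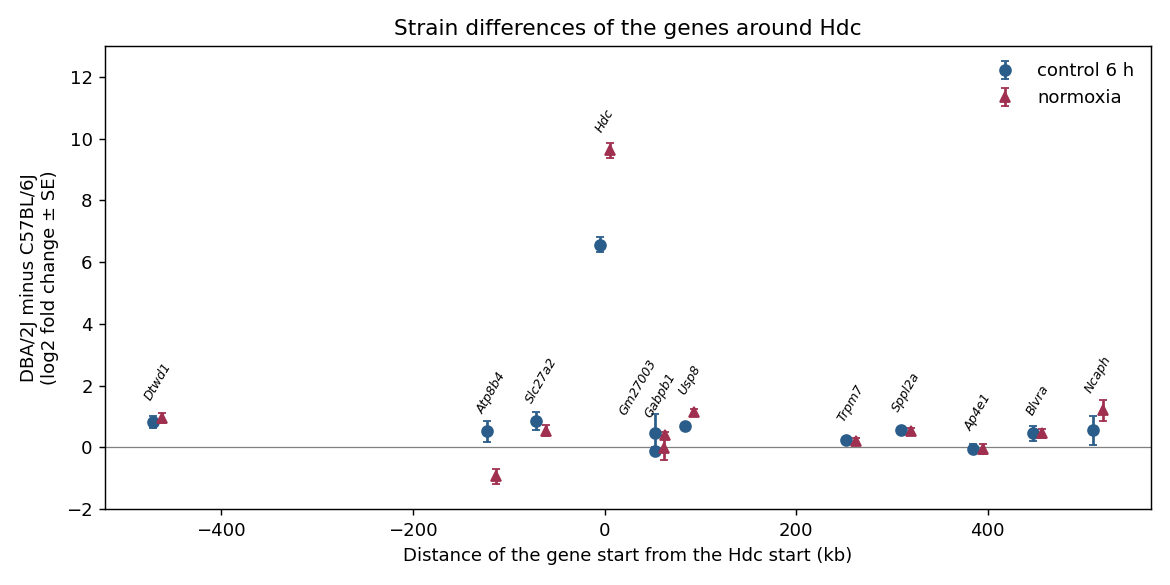
Strain difference (DBA/2J minus C57BL/6J, log2 fold change with bars of 1 SE) of Hdc and 11 tested genes within 500 kb, against the distance of each gene's start from that of Hdc in kb, in 6 h controls (circles) and normoxia (triangles). Hdc stands at 6.57 and 9.62, and the other genes lie between −0.93 and 1.20.

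Over the 16 group means Hdc is split by strain, so genes with a high r are nearly bound to be higher in DBA/2J. The genes most like Hdc were so in 6 h controls, by very unequal amounts. Among 12349 named genes with a mean log2 CPM of at least 1, the 6 with the highest Pearson r were Tm4sf5 (0.977), Fam213b (0.976), Usp8 (0.968), Clcn6 (0.967), Snurf (0.960) and Greb1 (0.958). Tm4sf5, a tetraspanin-like membrane protein, was at 36.8 CPM in DBA/2J and 0.143 CPM in C57BL/6J 6 h controls. Greb1, known as an oestrogen-responsive gene, was at 38.99 and 0.284 CPM. Those with the lowest r were Bik (−0.975), Hjurp (−0.968) and Tceanc2 (−0.953), and Bik was at 1.17 CPM in DBA/2J and 6.37 CPM in C57BL/6J 6 h controls. By r over the 48 libraries 5 of the 6 highest stayed among the first 6, and by Spearman's rho over the group means 1 did (Snurf). Without C57BL/6J tunicamycin 24 h replicate 2 all 6 highest and 2 of the 3 lowest stayed.

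Within the strains the picture differed. Tm4sf5 had r = 0.995 over the 8 DBA/2J means and −0.254 over the 8 C57BL/6J means (−0.0698 without C57BL/6J tunicamycin 24 h replicate 2), and Fam213b 0.997 and 0.313 (0.449 without it). The C57BL/6J group means of Tm4sf5 were only 0.0795 to 0.241 CPM, and those of Greb1 0.0155 to 0.289 CPM. Both genes reached the level for inclusion through DBA/2J, and their r over C57BL/6J means rests on very few reads. The highest value of the smaller of both correlations belonged to Nbr1, an autophagy receptor (0.908 in C57BL/6J and 0.934 in DBA/2J), followed by Rmnd5b (0.896), Malsu1 (0.877), Aftph (0.869), Setdb2 (0.863) and Atp6v1b2 (0.849). Without C57BL/6J tunicamycin 24 h replicate 2 2 of these 6, Nbr1 and Rmnd5b, stayed among the first 6. Each of these is among the best of 12349 over 8 points, so high values are partly set by the selection. Nbr1 also moved little, with group means of 186 to 228 CPM in C57BL/6J and 202 to 238 CPM in DBA/2J. In CPM, C57BL/6J Nbr1 was higher in 24 h controls (228) than in 6 h controls (203), opposite to Hdc. Its r without TMM scaling was not computed.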

How the data were processed

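RNA-seq was performed on 48 kidney slice libraries. The authors deposited whole-number counts per gene, without normalization. Per the labels' protocols, total RNA was made into stranded mRNA libraries, so mRNA abundance is measured and not enzyme activity. The submitters' processing notes name STAR 2.7.9a, featureCounts 1.5.1, bcl2fastq 2.20.0, FastQC 0.11.8 and the build GRCm38. The annotation release, strand setting and read filters are not given in the sources used here. The reference is a C57BL/6J genome, so reads over DBA/2J variants may be counted less well.

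Symbols matched 55141 of 55487 IDs. CPM is the count over the library total. Each comparison was fitted on its 12 libraries in 4 groups with edgeR 4.0.16 (R 4.3.3): TMM scaling, filtering by group, robust quasi-likelihood F test, and Benjamini-Hochberg adjustment over all genes tested, with 0.05 as the threshold. SE was derived from the fold change and F. Correlations used log2 CPM (TMM, prior count 2). Levels per kilobase used merged GENCODE M21 exons (6389 bases for Hdc). The fit was tested on simulated data. Replicates of a group always differed by more than sampling noise.

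Hdc and the lists were chosen with earlier results of these data known. Named genes were Hdc, the lists of 43 pathway genes, 61 cell markers and 20 hormone genes, the tested genes within 500 kb, the 6 highest and 3 lowest correlations over 16 group means, and the 6 highest smaller correlations of the strains. Some genes that enter the counts are not reported here by name. P-values measure the spread between 3 slices a group and cover no other source. Alternatives were RLE factors, no filter, DESeq2 1.42.0, 1 fit of all 48 libraries, a replicate block and leaving out each library. Correlations and the group order without C57BL/6J tunicamycin 24 h replicate 2 were added after seeing the data. The promoter bases are from RefSeq (GRCm38.p6).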

Additional observations from a re-analysis of the deposited data

Results flagged for a closer look

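Hdc itself moved in opposite directions in the strains in 3 comparisons, with every library of a strain on the same side in CPM. For normoxia against 24 h controls this did not hold under TMM scaling, where 1 C57BL/6J normoxia library (0.778) lay above 1 control (0.730). The difference of the log2 changes (DBA/2J minus C57BL/6J) was 4.40 for normoxia against 24 h controls, 3.02 for normoxia against 6 h controls and −5.64 for normoxia-hyperoxia against normoxia. The difference was not tested, because Hdc was selected on measured values of these libraries.

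Of the pathway genes, Uroc1 differed between the strains in its change from 6 h to 24 h (log2 interaction 1.23 by edgeR at an adjusted p under 0.05). For normoxia against 24 h controls, Gad1 (−2.62), Uroc1 (−1.72), Maob (−1.68), Slc22a2 (−1.10), Slc7a5 (−1.06), Ftcd (−0.93), Slc47a1 (−0.83), Csad (−0.81) and Pdxk (−0.52) had lower changes in DBA/2J. In the same comparison Slc15a2 (1.15) and Slc3a2 (1.07) had higher ones.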

How the results depend on the processing

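With RLE factors, no filter, DESeq2 or 1 fit of all 48 libraries, every log2 difference of Hdc in the 10 comparisons over both strains and the 8 strain differences kept its direction and moved by less than the spread between replicates. Leaving out 1 library gave −0.12 to 0.05 for cyclosporin A at 6 h (0.04 and 0.03 without C57BL/6J control replicate 2 or 3, 0.03 without DBA/2J control replicate 3, 0.01 without C57BL/6J cyclosporin A replicate 3, 0.05 without DBA/2J cyclosporin A replicate 2) and −0.14 to 0.75 for tunicamycin at 24 h, with the reversal to −0.14 without C57BL/6J tunicamycin replicate 2. The strain difference under tunicamycin at 24 h ran from 3.82 to 5.60. The replicate block, nested in strain, gave −0.12, −0.02, 0.49 and −0.28 for the 4 drug comparisons in the order of the report, with no call of Hdc changed among these, and, untested, −1.90 for time and 1.40 for normoxia against 24 h controls. It cannot give strain differences. Same-numbered libraries had residual correlations over 0.1 in 5 of 6 pairs at most in any comparison, so the numbers are not taken as pairs. All 6 pairs correlated better with their own number than with another for normoxia against 6 h controls, and 5 of 6 did in 3 other comparisons, a hint from the data and not from the design.

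Counts of pathway genes moved as follows. The tunicamycin count at 24 h was 0 to 2 with 1 library left out. The strain interaction under normoxia (12) was 6 in 1 fit of all libraries and 5 to 13 with 1 left out. The interaction with time (1) was 8 without the filter, 2 by DESeq2, 2 with the replicate block and 1 to 2 with 1 library left out. That of normoxia-hyperoxia (0) was 6 without the filter, 2 with the block and 0 to 1 with 1 left out. The cause was not tested. Depth limits C57BL/6J Hdc, with 7 counts in its lowest library.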
